A study of Mus musculus with 4 samples.

Results

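Pla2g4b, Gchfr, Sptbn5, Mfap1a, Mfap1b and Slc28a2 are 6 genes that lie in 1 stretch of mouse chromosome 2. They are 6 of the 19991 genes with a symbol in the deposited TPM table. They were selected because neighbouring genes there showed large differences of both signs between the groups, so they were selected on the difference between knockout and control levels in these same 4 libraries. Their fold changes are therefore given as a description, with no test. Mfap1a does not meet that description, since its level was nearly the same in all libraries, and it is kept as the near copy of Mfap1b.

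RNA was sequenced from whole mouse uterus on gestational day 4. The 2 control libraries came from wild-type mice. The 2 knockout libraries came from mice labelled Prss29Cre/Cre;Pgrf/f, with Cre recombinase on both copies of Prss29 and floxed copies of Pgr, the progesterone receptor gene. Prss29 encodes a serine protease of uterine glands, so the Cre acts in glands while the RNA came from all cells of the organ. The labels name no strain, age or number of animals per library, and they name neither Cre nor floxed Pgr in the controls. A difference in strain on chromosome 2, the Cre insertion and the loss of Pgr therefore cannot be told apart with these 4 libraries. In whole tissue, fewer cells of a type and less RNA per cell cannot be told apart either.

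The 6 genes act in separate pathways. Gchfr encodes the feedback regulator of GTP cyclohydrolase 1, the enzyme that starts the synthesis of tetrahydrobiopterin, a cofactor of nitric oxide synthases. Pla2g4b encodes a cytosolic phospholipase A2, an enzyme family that releases fatty acids from membrane phospholipids for the synthesis of prostaglandins and other eicosanoids. Sptbn5 is the mouse gene for beta-V spectrin, one of the spectrins of the membrane skeleton, although GENCODE M21 lists it as a processed transcript and not as protein-coding. Mfap1a and Mfap1b are copies of a gene for a spliceosome protein, and Slc28a2 encodes a sodium-coupled transporter of purine nucleosides.

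Gene order was taken from the GENCODE M21 annotation of GRCm38, matched by Ensembl ID, because the files were made on GRCm39. The order was Gchfr, Pla2g4b, Sptbn5, Mfap1b, Mfap1a and Slc28a2. Gchfr, Pla2g4b and Slc28a2 are on the plus strand and Sptbn5, Mfap1b and Mfap1a on the minus strand. Between Gchfr and Pla2g4b lay 24 genes with enough reads to be tested, and between Sptbn5 and Mfap1b there were 33. Pla2g4b and Sptbn5 are adjacent and their gene bodies overlap by 1538 bases on opposite strands. Between Mfap1b and Mfap1a lay only 2 pseudogenes, 1 of them tested, and between Mfap1a and Slc28a2 there were 11 tested genes. Pgr is on chromosome 9 and Prss29 on chromosome 17.

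The start of the coding sequence of Mfap1a and Mfap1b is shown because it bears on how their reads can be told apart. The coding sequences of the GENCODE M21 transcripts compared are 1317 bases long in both genes and differ at 0 of them, so the 439 residues are also the same. The first 60 coding bases read:
Mfap1a and Mfap1b coding start: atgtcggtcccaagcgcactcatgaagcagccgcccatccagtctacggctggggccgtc
Of 1168 windows of 150 bases, the read length, in this coding sequence, 0 hold a base that separates the genes. Over the whole transcripts, 54.2% of the 150-base windows of Mfap1b and 46.0% of those of Mfap1a occur in another gene, so a read is assigned to one or the other only by the untranslated parts.

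The promoters of this pair are shown because the copies share their coding sequence and had different differences between groups. They come from RefSeq on GRCm38.p6 and run from 250 bases before the start to 50 after it. That of Mfap1a is chr2:121506607-121506906 and that of Mfap1b is chr2:121473974-121474273, both on the minus strand. Capitals mark bases that differ between the 2 or have no partner in their alignment.
Mfap1a promoter: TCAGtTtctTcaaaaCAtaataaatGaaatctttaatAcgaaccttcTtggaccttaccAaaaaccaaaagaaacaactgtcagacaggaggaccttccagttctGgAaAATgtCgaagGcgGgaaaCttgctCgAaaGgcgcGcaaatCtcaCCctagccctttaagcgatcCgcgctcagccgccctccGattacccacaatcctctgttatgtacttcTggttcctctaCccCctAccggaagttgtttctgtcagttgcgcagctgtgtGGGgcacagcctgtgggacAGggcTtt
Mfap1b promoter: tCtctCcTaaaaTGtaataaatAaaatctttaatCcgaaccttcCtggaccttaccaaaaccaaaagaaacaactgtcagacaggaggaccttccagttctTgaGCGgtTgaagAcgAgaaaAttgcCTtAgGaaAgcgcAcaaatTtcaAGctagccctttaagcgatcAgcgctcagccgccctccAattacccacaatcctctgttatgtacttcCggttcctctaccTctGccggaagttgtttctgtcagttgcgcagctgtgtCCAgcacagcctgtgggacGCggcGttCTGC
Over 293 aligned bases the promoters were 88.7% identical. Each has 13 CpG dinucleotides. The ETS core CCGGAA, searched on both strands, occurs 2 times in the Mfap1b promoter and 1 time in that of Mfap1a, and 14.9% of the 32851 RefSeq promoters hold it. The CCAAT box, searched as CCAAT on both strands, occurs 1 time in Mfap1b and 0 times in Mfap1a, and 37.4% of all promoters hold it.

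The promoters of Gchfr, which was higher in the knockouts, and of Slc28a2, which was lower, are shown because they differ in base composition. They lie at chr2:119167538-119167837 and chr2:122426185-122426484 of GRCm38.p6, both on the plus strand. Capitals mark matches to CCAAT on either strand.
Gchfr promoter: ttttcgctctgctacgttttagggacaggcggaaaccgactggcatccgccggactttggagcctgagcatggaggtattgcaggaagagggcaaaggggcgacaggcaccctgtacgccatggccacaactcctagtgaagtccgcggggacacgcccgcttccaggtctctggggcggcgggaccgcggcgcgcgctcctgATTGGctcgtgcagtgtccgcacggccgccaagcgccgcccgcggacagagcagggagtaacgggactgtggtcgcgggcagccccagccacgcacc
Slc28a2 promoter: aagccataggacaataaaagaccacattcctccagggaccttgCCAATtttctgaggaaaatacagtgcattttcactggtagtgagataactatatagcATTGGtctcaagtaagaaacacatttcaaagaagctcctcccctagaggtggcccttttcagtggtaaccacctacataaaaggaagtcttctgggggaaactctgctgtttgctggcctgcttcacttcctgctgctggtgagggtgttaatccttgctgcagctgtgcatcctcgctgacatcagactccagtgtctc
The Gchfr promoter has 31 CpG dinucleotides and 67.0% G or C. That of Slc28a2 has 1 CpG and 46.7% G or C. Over all promoters the medians were 7 CpG and 52.7% G or C. The Sptbn5 promoter, with 3 CpG and 49.7% G or C, was the only one of the 5 found that held TGTTCT, a half-site of the progesterone receptor, which occurs in 19.0% of all promoters on either strand. TATAAA was in none of the 5, against 13.6% of all promoters. These matches describe letters and not bound sites. Pla2g4b had no entry in the table.

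Total counts per library ranged from 29932153 to 35149834. Levels below are in CPM, counts scaled by library size with the TMM factors of edgeR, unless TPM, which also divides by gene length, is named. Gaps and distances between libraries on the log2 scale used CPM with a prior count of 2 added. This makes them smaller than the printed CPM give where counts are low. Over all genes, the chi-square per degree of freedom was 86.2 between the controls and 81.9 between the knockouts. Between libraries of different groups it ran from 40.9 for control 2 with knockout 1 to 119 for control 2 with knockout 2, so the groups did not separate by this measure. Prss29 and Pgr were looked at as a check of the labels. Prss29, which carries Cre in the knockouts, had 1524 and 190 counts in the controls versus 0 and 0 in the knockouts. That does not show a loss of Pgr. Pgr was at 141 and 139 CPM in the controls versus 130 and 146 CPM in the knockouts, a level over the whole uterus and whole gene that does not show whether the floxed part was lost in glands. The 9 markers of uterus identity summed to 1625 and 1863 CPM in the controls versus 2020 and 1704 CPM in the knockouts.

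Across the 6 genes, 1 was higher and 5 were lower in the knockouts, and the groups did not overlap for any of them. Of all 20950 tested genes, 5303 (25.3%) had groups that did not overlap. By the rule of at least a 2-fold difference with no overlap of the groups, 5 of the 6 stood apart, all but Mfap1a. Over all 20950 tested genes, 844 (4.03%) did so, of which 337 (1.61%) were higher and 507 (2.42%) lower in the knockouts. Since the contrast chose the members, nothing is read from their share. By the adjusted p-value threshold of 0.05 in edgeR's quasi-likelihood test, 1 gene of all tested (0.00477%) was called, Gbp2b on chromosome 3, and 0 of the 6. With an unadjusted p under 0.05 there were 630 genes in all.

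**Figure D1:**
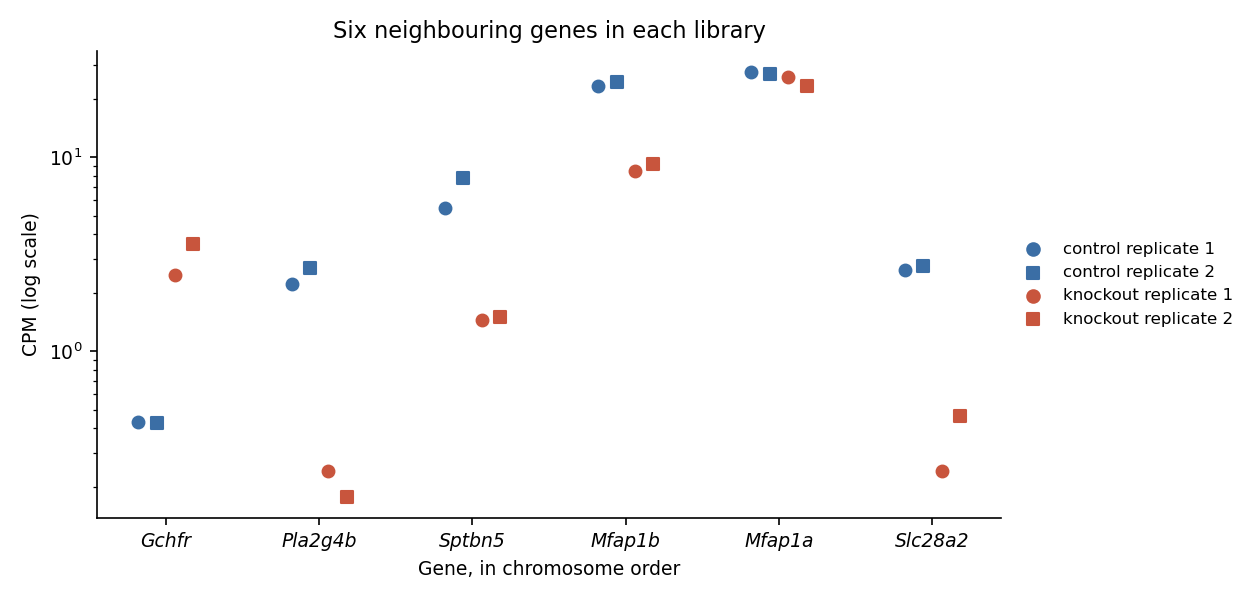
Level of each of the 6 genes in CPM on a log axis, with genes in chromosome order, controls in blue, knockouts in red, circles for replicate 1 and squares for replicate 2. Gchfr is higher in both knockouts, Pla2g4b, Sptbn5, Mfap1b and Slc28a2 are lower in both, and the 4 Mfap1a values lie between 23.2 and 27.5 CPM.

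Gchfr was the member that was higher in the knockouts. It had 15 counts in each control, 82 in knockout 1 and 100 in knockout 2. Its levels were 0.432 and 0.427 CPM in controls 1 and 2 versus 2.48 and 3.56 CPM in knockouts 1 and 2. Both knockouts were far above both controls, and the lowest knockout exceeded the highest control by 2.37 on the log2 scale. The mean was 0.430 ± 0.00305 CPM in the controls versus 3.02 ± 0.768 CPM in the knockouts (SD, n = 2 each). The ratio of knockout to control was 6.93, with a 95% interval from 4.69 to 10.6 that covers counting error only. The fitted log2 fold change was 2.80 ± 0.51 (SE), with a 95% interval from 1.59 to 4.04.

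The partner of the Gchfr protein, encoded by Gch1 on chromosome 14, stood at 5.07, 4.84, 5.14 and 4.92 CPM in control 1, control 2, knockout 1 and knockout 2. Its log2 fold change was 0.02 ± 0.34 (SE), and the groups overlapped. Rmdn3, the neighbour of Gchfr on the side away from the other members, had a log2 fold change of 0.02 ± 0.22 (SE). Dnajc17, the neighbour on the other side, encodes a J-domain protein and stood at −0.52 ± 0.31. Neither adjacent gene differed by 2-fold.

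Pla2g4b had the largest difference of the 6, with an absolute log2 fold change that ranked 53 among all tested genes. Its reads were 77 and 94 counts in controls 1 and 2 versus 8 and 5 counts in knockouts 1 and 2. These were levels of 2.22 and 2.68 CPM in the controls versus 0.242 and 0.178 CPM in the knockouts. Both knockouts lay near the level of 3 counts per library, which was 0.0907 and 0.107 CPM for them. The mean was 2.45 ± 0.327 CPM in the controls versus 0.210 ± 0.0450 CPM in the knockouts (SD, n = 2 each). The controls exceeded the knockouts 11.5-fold, with a 95% counting interval from 6.56 to 22.1. The fitted log2 fold change was −3.51 ± 0.57 (SE), with a 95% interval from −4.88 to −2.19.

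The reads of Pla2g4b are hard to assign. In GENCODE M21, 66.5% of its exon bases also lie in exons of Gm28042, a readthrough gene that joins Jmjd7 and Pla2g4b, or of Sptbn5 on the other strand. Gm28042 had 0 counts in all 4 libraries. Jmjd7, the upstream gene of the readthrough, which encodes a JmjC-domain enzyme, had too few reads to be tested, with 17 and 5 counts in the controls versus 3 and 3 in the knockouts. How reads in shared exons were counted is not given in the sources used here.

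Sptbn5, the adjacent gene, was also lower in the knockouts. It had 191 and 275 counts in controls 1 and 2 versus 48 and 42 in knockouts 1 and 2. Its levels were 5.50 and 7.84 CPM in the controls versus 1.451 and 1.497 CPM in the knockouts. The controls lay apart from each other more than the knockouts did, and the lowest control still exceeded the highest knockout by 1.83 on the log2 scale. The mean was 6.67 ± 1.65 CPM in the controls versus 1.47 ± 0.0326 CPM in the knockouts (SD, n = 2 each). The ratio of control to knockout was 4.53, with a 95% counting interval from 3.61 to 5.75, and the fitted log2 fold change was −2.17 ± 0.41 (SE).

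Of the exon bases of Sptbn5, 6.79% overlap Pla2g4b or Gm28042 on the other strand. The strand setting of the counting is not given, so reads from that overlap cannot be assigned to one gene, while the rest of Sptbn5 is free of it. Ehd4, the neighbour on the other side of Sptbn5, encodes an endosomal membrane protein and had a log2 fold change of −0.13 ± 0.26 (SE).

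Mfap1b and Mfap1a had similar levels in the controls and different ones in the knockouts. Mfap1b had 805 and 859 counts in controls 1 and 2 versus 282 and 260 in knockouts 1 and 2. Its levels were 23.2 and 24.5 CPM in the controls versus 8.52 and 9.27 CPM in the knockouts. Both knockouts were below both controls by at least 1.32 on the log2 scale. The mean was 23.8 ± 0.925 CPM in the controls versus 8.90 ± 0.525 CPM in the knockouts (SD, n = 2 each). The ratio of control to knockout was 2.69, with a 95% counting interval from 2.44 to 2.97, and the fitted log2 fold change was −1.42 ± 0.26 (SE).

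Mfap1a had 954 and 936 counts in controls 1 and 2 versus 857 and 650 in knockouts 1 and 2. Its levels were 27.5 and 26.7 CPM in the controls versus 25.9 and 23.2 CPM in the knockouts. The knockouts were lower, but by a gap of only 0.042 on the log2 scale between knockout 1 and control 2, which was smaller than the step between the knockouts, with knockout 2 minus knockout 1 at −0.161. The fitted log2 fold change was −0.14 ± 0.23 (SE), with a 95% interval from −0.69 to 0.40.

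Because the 2 genes share many read-length windows, their sum and their split were also taken. The sum was 50.6 and 51.2 CPM in controls 1 and 2 versus 34.4 and 32.4 CPM in knockouts 1 and 2. With the counts summed before the fit, the pair had a log2 fold change of −0.61. Mfap1b made up 45.8% of the pair's counts in control 1 (exact 95% binomial interval 43.4% to 48.1%) and 47.9% in control 2 (45.5% to 50.2%). In knockout 1 it made up 24.8% (22.3% to 27.4%) and in knockout 2 28.6% (25.7% to 31.6%). The share of Mfap1b and the sum of the pair were both lower in both knockouts, and Mfap1a was not higher there.

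**Figure D2:**
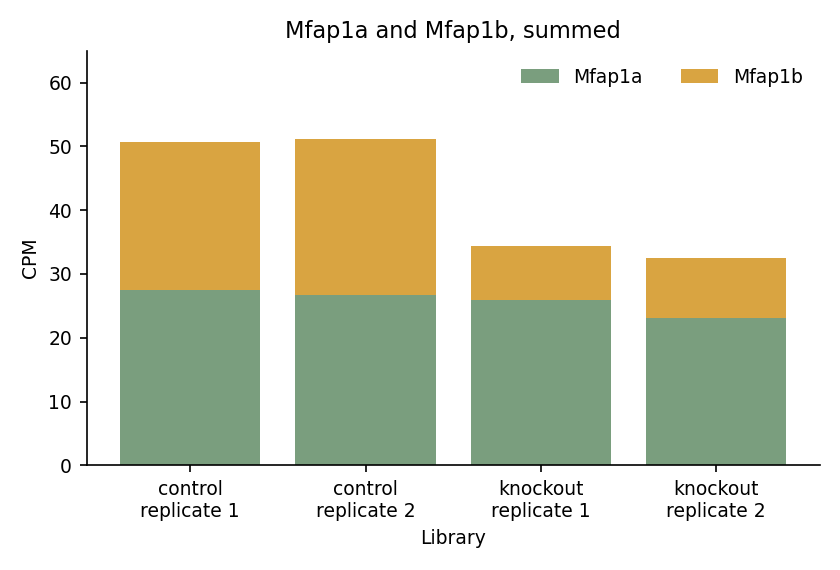
Stacked levels of Mfap1a (green, bottom) and Mfap1b (yellow, top) in CPM in each library. The Mfap1a part is of similar height in all 4 libraries, while the Mfap1b part is shorter in the knockouts and the stack drops from 50.6 and 51.2 CPM to 34.4 and 32.4 CPM.

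The genes beside this pair were measured as well. Hypk, next to Mfap1b, encodes a chaperone that binds huntingtin and had a log2 fold change of −0.17 ± 0.35 (SE). The pseudogene Gm14018, between the copies, stood at −0.56 ± 0.51. The other pseudogene between them, Gm14017, had 3 to 6 counts per library and was not tested. Wdr76, a gene for a WD-repeat protein on the far side of Mfap1a, stood at −0.54 ± 0.29.

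Slc28a2, the last of the 6 in gene order, was lower in the knockouts. It had 91 and 97 counts in controls 1 and 2 versus 8 and 13 in knockouts 1 and 2. Its levels were 2.62 and 2.76 CPM in the controls versus 0.242 and 0.463 CPM in the knockouts. With the prior count of 2 added, the knockouts differed from each other by 0.792 on the log2 scale, and the gap to the lowest control was 2.35. The mean was 2.69 ± 0.102 CPM in the controls versus 0.353 ± 0.157 CPM in the knockouts (SD, n = 2 each). The ratio of control to knockout was 7.84, with a 95% counting interval from 4.98 to 13.0, and the fitted log2 fold change was −2.93 ± 0.57 (SE).

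Slc28a2 has a near copy on the same chromosome, Slc28a2b, with which it shares 9.83% of its 150-base windows. Slc28a2b had 0 and 4 counts in controls 1 and 2 versus 6 and 2 in knockouts 1 and 2. With the 2 genes summed before the fit, the log2 fold change was −2.52. The annotated neighbours of Slc28a2, the small nuclear RNA gene Gm24409 and the pseudogene Gm14086, had at most 2 counts in any library.

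Ordered by TPM, which allows levels of different genes to be compared, the control means were 22.7 ± 0.914 for Mfap1b, 20.7 ± 0.395 for Mfap1a, 2.13 ± 0.0121 for Gchfr, 2.05 ± 0.0809 for Slc28a2, 1.83 ± 0.457 for Sptbn5 and 1.34 ± 0.182 for Pla2g4b (SD, n = 2 each). The Sptbn5 values of 1.51 and 2.16 TPM spanned those of Gchfr and Slc28a2, so the order of these 3 is within the spread. In the knockouts the order was Mfap1a at 18.1 ± 3.25, Gchfr at 14.3 ± 2.21, Mfap1b at 8.14 ± 0.345, Sptbn5 at 0.390 ± 0.0309, Slc28a2 at 0.253 ± 0.0887 and Pla2g4b at 0.112 ± 0.0350 TPM. Gchfr thus stood above Mfap1b in both knockouts, whereas in the controls its TPM was far below that of Mfap1b. TPM divides by the full gene length, but reads in windows shared with another gene may have been left out or misassigned. Such windows of 150 bases made up 54.2% for Mfap1b, 46.0% for Mfap1a, 60.5% for Pla2g4b and 0% for Gchfr. The order of Gchfr and the Mfap1 genes in the knockouts may therefore depend on how shared reads were counted. Mfap1a at 15.8 TPM and Gchfr at 15.8 TPM could not be ordered in knockout 2, and Slc28a2 at 0.315 TPM in that library came near Sptbn5 at 0.368 TPM.

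Replicates of these genes were close by their medians, but not for every member. The absolute log2 difference between the 2 controls ranged from 0.0127 for Gchfr to 0.507 for Sptbn5, with a median of 0.0775. Between the 2 knockouts it ranged from 0.0433 for Sptbn5 to 0.792 for Slc28a2, with a median of 0.250. Over the 8285 tested genes with a mean between 1.33 and 25.8 CPM, the range of the members, the medians were 0.356 and 0.436. Sptbn5 in the controls, and Slc28a2 and Gchfr (0.513) in the knockouts, lay above these medians. Genes chosen for a large difference without overlap tend to have close replicates, so the comparison is a description.

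The other genes of the stretch were counted as well. They are what remains after genes with large differences were taken out as members, so their share apart is lowered by that choice and is given as a description. Between the start of Gchfr and the end of Slc28a2 lay 69 other tested genes. By the adjusted p-value of edgeR, 0 of them were called, as by DESeq2 and limma-voom. Over all genes edgeR called 1 of 20950, DESeq2 90 of 34279 and limma-voom 0 of 20950, so a 0 here says little. In edgeR 5 had an unadjusted p under 0.05 (7.25%, against 3.01% of all genes). By the rule of 2-fold without overlap, 2 of the 69 stood apart (2.90%, against 4.03% of all genes), and with the 6 members included 7 of 75 did (9.33%), a share that the choice of members in part fixes. Their median log2 fold change was 0.02, against 0.01 for all genes, with 36 above 0 and 33 below.

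Both of the genes that stood apart are near Pla2g4b. Tyro3, a receptor tyrosine kinase gene of the TAM family, had 38.8 and 17.9 CPM in controls 1 and 2 versus 9.34 and 11.7 CPM in knockouts 1 and 2, with a log2 fold change of −1.43 ± 0.40 (SE). Control 1 lay further from control 2 than control 2 did from either knockout. Pla2g4f, another cytosolic phospholipase A2 gene, had 1 and 8 counts in controls 1 and 2 versus 12 and 13 in knockouts 1 and 2. Its log2 fold change was 1.65 ± 0.95 (SE), opposite in sign to that of Pla2g4b and at levels near the limit of detection.

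**Figure D3:**
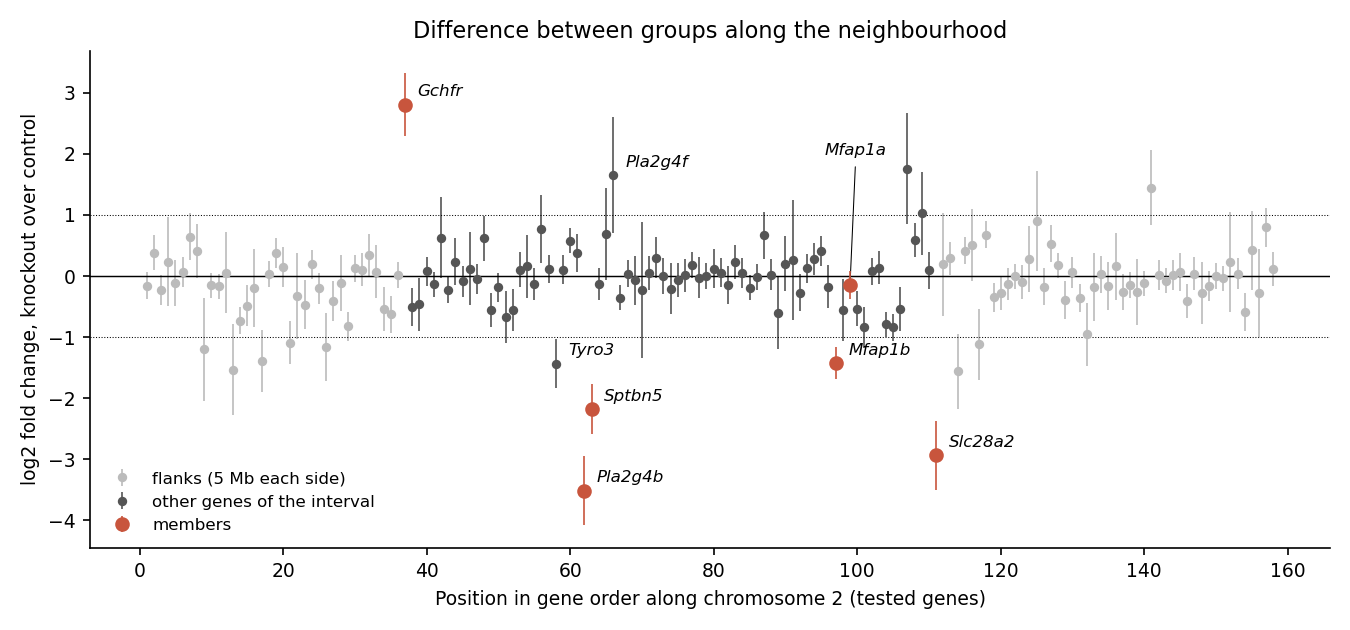
Log2 fold change of knockout over control, with its SE as bars, for the tested genes in order along chromosome 2, with the 6 members in red, the 69 other genes of the interval in dark grey and the 83 genes of the 5 Mb flanks in light grey. Dotted lines mark a 2-fold difference. Gchfr, Pla2g4b, Sptbn5 and Slc28a2 lie farther from 0 than any other gene shown, Mfap1b is within the range of other genes such as Tyro3 and Pla2g4f, and Mfap1a lies near 0.

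Genes within 5 Mb on either side of the interval were counted in the same way. Of 83 tested, 0 were called by the adjusted p-value of edgeR, DESeq2 or limma-voom. As these called 1, 90 and 0 of all genes, this 0 also says little. An unadjusted p under 0.05 in edgeR was seen for 7 (8.43%, against 3.01% of all genes). There were 8 (9.64%, against 4.03% of all genes) that stood apart by 2-fold without overlap, 7 lower and 1 higher. On the Gchfr side it was 5 of 36 (13.9%) and on the Slc28a2 side 3 of 47 (6.38%). Within 2 Mb the count was 6 of 36 (16.7%) and within 10 Mb 12 of 189 (6.35%), compared with 43 of 1260 (3.41%) on chromosome 2 beyond the 10 Mb flanks. With 1 library left out, the share in the 5 Mb flanks was 14.1% against 11.4% of all genes without control 1, 15.5% against 14.6% without knockout 1 and 9.41% against 9.02% without knockout 2. Without control 2 it was lower than that of all genes, at 8.33% against 10.2%. It stayed at 9.64% with RLE or upper-quartile factors, limma-voom and a replicate block, against 4.0% to 4.11% of all genes. With DESeq2 it was 10.3% against 9.99%, without a filter 10.3% against 9.91%, and on log2(TPM + 1) 1.22% against 1.43%. The higher share in the flanks thus depended on the setting.

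On the Gchfr side, the 5 genes were D330050G23Rik at −1.20 ± 0.84 (SE), Gm13986 at −1.54 ± 0.75, Gpr176 at −1.40 ± 0.51, Bub1b at −1.09 ± 0.35 and Disp2 at −1.16 ± 0.55 on the log2 scale. Gpr176, an orphan receptor gene, had 3.11 and 1.94 CPM in controls 1 and 2 versus 0.846 and 1.07 CPM in knockouts 1 and 2. Bub1b, which encodes a kinase of the mitotic spindle checkpoint, had 21.4 and 24.3 CPM in the controls versus 13.8 and 7.59 CPM in the knockouts. On the Slc28a2 side, AA467197 stood at −1.56 ± 0.62, Bloc1s6os at −1.11 ± 0.58 and Usp50 at 1.45 ± 0.62. Each of these differences was smaller than those of Gchfr, Pla2g4b, Sptbn5 and Slc28a2.

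Over chromosome 2 as a whole, 62 of 1524 tested genes (4.07%) stood apart, close to the share of all genes. Across the 20 chromosomes the share ran from 2.34% on chromosome 17 to 7.54% on chromosome 1.

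Genes with the most similar pattern were sought among 17263 with a mean of at least 1 CPM, by the distance of their centred log2 CPM over the 4 libraries. None of the 2 nearest genes of each member was on chromosome 2. Gchfr was nearest to Slc16a14, at a distance of 0.304, and Ighg2b, an immunoglobulin constant region, at 0.343. Pla2g4b was nearest to Cyp3a59 at 0.380 and Igha, the immunoglobulin A constant region, at 0.419. Slc28a2 was nearest to A430073D23Rik at 0.513 and Jchain, the joining chain of secreted antibody, at 0.518.

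Of these immunoglobulin genes, 2 were lower in the knockouts and 1 was higher. Igha had 328 and 356 CPM in the controls versus 52.7 and 44.6 CPM in the knockouts, while Jchain had 91.6 and 97.4 CPM in the controls versus 14.8 and 25.8 CPM in the knockouts. Ighg2b had 0.806 and 0.769 CPM in the controls versus 5.80 and 6.70 CPM in the knockouts. The nearest genes of Sptbn5 were Akr1d1 at 0.183 and Dlk1 at 0.244, and those of Mfap1b were Tasl at 0.206 and Gsto1 at 0.249. Mfap1a, with little variation to match, was nearest to Mettl3 at 0.0112 and Fbxl14 at 0.0193. With 4 libraries in 2 groups, such a match says little beyond a similar difference between groups.

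Sums over marker lists of cell types moved with the groups in places. The 6 B and plasma cell markers summed to 205 CPM in each control and to 40.1 and 47.1 CPM in the knockouts, of which 3 of 4 tested stood apart and none was at 0 in all libraries. The 8 gland markers summed to 219 and 148 CPM in the controls versus 68.8 and 96.8 CPM in the knockouts, with 6 of 8 apart. Among the 6 was Prss29 at 0 in the knockouts, but it carries Cre there, so its value is not a measure of glands. Foxa2 differed by less than 2-fold, at −0.62 ± 0.44 (SE). Cxcl15 went the other way, with 29.5 and 38.6 CPM in the controls versus 35.7 and 72.6 CPM in the knockouts, and its groups overlapped. The 5 macrophage markers summed to 361 and 510 CPM in the controls versus 263 and 313 CPM in the knockouts, with 0 apart and none at 0. The 5 adipocyte markers summed to 1.09 and 4.47 CPM in the controls versus 0.514 and 20.4 CPM in the knockouts, and the 6 smooth muscle markers to 6827 and 2139 against 5478 and 9009 CPM. The part of these cell types in the values of the 6 genes was not tested.

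Other genes of the pathways of the 6 were taken from lists of textbook members. By the adjusted p-value of edgeR, 0 genes of any of the 5 lists were called, and DESeq2 and limma-voom also called 0 of them. Over all genes edgeR, DESeq2 and limma-voom called 1, 90 and 0, so a 0 in short lists says little. An unadjusted p under 0.05 in edgeR was seen for 3.01% of all genes. Among tested non-members it was 1 of 10 in the tetrahydrobiopterin list and 2 of 13 in the spectrin list. In the nucleoside list it was 1 of 15, and in the others 0. In the list of cytosolic phospholipase A2 and eicosanoid enzymes, 10 non-members were tested and 2 stood apart, Pla2g4f and Pla2g4c, with a median log2 fold change of 0.15. Pla2g4c had 27 and 47 counts in the controls versus 17 and 8 in the knockouts, at −1.39 ± 0.64 (SE). Pla2g4a, the family member that supplies arachidonic acid for uterine prostaglandins, was far more abundant than Pla2g4b, at 43.8 and 81.1 TPM in the controls versus 55.5 and 81.0 TPM in the knockouts. Its log2 fold change was 0.21 ± 0.38 (SE) with overlapping groups. Alox15, a lipoxygenase gene and the most abundant of the list, spanned 296 to 1456 CPM with overlapping groups. Pla2g4e, in the interval beside Pla2g4f, had 11 counts in each control and 25 and 7 in the knockouts, and Pla2g4d had 0 in every library.

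In the list of tetrahydrobiopterin synthesis and use, 10 non-members were tested, with a median log2 fold change of 0.06. Spr and Qdpr, enzymes that make and recycle the cofactor, were the most abundant and stood at −0.03 ± 0.22 and 0.15 ± 0.22 (SE) on the log2 scale. No other gene of this list was higher by the size seen at Gchfr, which was itself chosen for its difference.

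In the list of the spectrin membrane skeleton, 13 non-members were tested, with a median of 0.03. Sptbn1 and Sptan1, the main spectrins of non-erythroid cells, stood at 0.08 ± 0.27 and 0.03 ± 0.27 (SE). Sptbn4 was at 0.02 ± 0.37. Sptb, the erythroid beta spectrin, stood apart at 1.63 ± 0.60, with 3.54 and 4.42 CPM in the controls versus 19.4 and 5.24 CPM in the knockouts, a difference carried mainly by knockout 1.

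In the spliceosome list, 17 non-members were tested, 0 stood apart and the median was −0.08. Prpf8 and Prpf4b, the most abundant, were at −0.14 ± 0.29 and 0.05 ± 0.22 (SE). The size of the Mfap1b difference was not seen in any other tested gene of that list. Mfap1b was chosen for its difference, so this is a description.

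In the list of nucleoside transport and adenosine handling, 15 non-members were tested, 0 stood apart and the median was 0.03. Slc29a1, the main equilibrative nucleoside transporter, and Entpd1, an ectonucleotidase, were at 0.16 ± 0.23 and 0.20 ± 0.23 (SE). Slc28a3, the broad-range member of the Slc28 family, was at 28.8 and 25.3 CPM in the controls versus 17.3 and 12.8 CPM in the knockouts, with a log2 fold change of −0.85 ± 0.27 (SE). Slc28a1 had 0 and 1 counts in the controls versus 7 and 3 in the knockouts, too few to be tested.

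**Figure D4:**
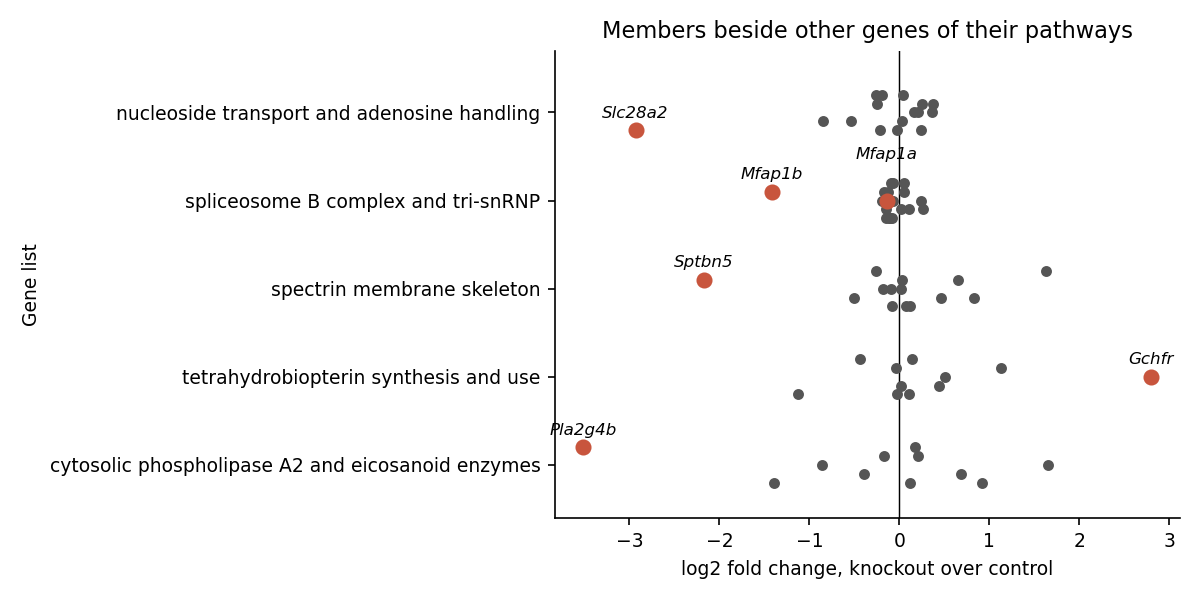
Log2 fold change of knockout over control for the tested genes of the 5 pathway lists, with the 6 members in red and the other genes in grey, shifted vertically only to separate points. Apart from Mfap1a, each member lies beyond every other tested gene of its list. The members were chosen for a large difference in these libraries, so nothing is read from this.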

How the data were processed

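The 6 genes and the lists were chosen with earlier results of these data known. The submitters' processing notes name Trimmomatic, STAR, featureCounts and the genome GRCm39. Their versions, the annotation, the strand setting and the treatment of reads with several matches were not given in the sources used here. Libraries were read as paired ends of 150 bases and converted with bcl2fastq 2.17, per the labels and design text. The authors deposited whole-number counts for 57186 genes and TPM for 19991 of them. From the deposited counts, edgeR 4.0.16 (R 4.3.3) gave quasi-likelihood tests with TMM factors and filterByExpr (minimum count 10, minimum total 15), which kept 20950 genes, and Benjamini-Hochberg adjustment at 0.05. Biological coefficient of variation and prior degrees of freedom came to 0.309 and 4.77, on 2 residual degrees. The labels do not say that replicates are separate animals, and p-values then measure only a spread among libraries that may be technical. All 4 libraries differed from each other by more than sampling noise.

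The floor of 3 counts was 0.0863, 0.0855, 0.0907 and 0.107 CPM in control 1, control 2, knockout 1 and knockout 2. Ratios carry 95% intervals for counting error only, since PCR reads without molecular identifiers are not independent. Of the tested genes, 20227 (96.5%) had a position in GENCODE M21 on GRCm38, used for gene order and read-window sharing. Chromosomes, strands, gene types, the interval and flanks, exon overlap and coding sequences were also taken from it. Symbols came from the deposited TPM table and that annotation. Promoters came from RefSeq (GRCm38.p6). The procedure was tested on simulated data.

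Named genes are the 6, genes of the interval and 5 Mb flanks that passed either call, the 2 genes nearest in pattern to each of the 6, immediate neighbours, paralogs with Gch1 (some results are not reported here), called and the 2 most abundant genes of each list, and Pgr and Prss29. Gbp2b, Pla2g4a, Pla2g4c, Sptb, Gm28042, Spg11, Frmd5, Mapkbp1 and the Eif3j genes were added after their values were seen. Alternatives were RLE and upper-quartile factors, no filter, DESeq2 1.42.0, limma-voom and limma 3.58.1 on log2(TPM + 1), a replicate block, each library left out, flanks of 2 and 10 Mb, a 1.5-fold threshold, and near copies summed.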

Additional observations from a re-analysis of the deposited data

How the results depend on the processing

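There were 2 libraries a group, and the low counts of Pla2g4b and Slc28a2 in the knockouts limit their folds. Over all genes, 90 were called by DESeq2, 0 by limma-voom (602 at an unadjusted p under 0.05), 3 on log2(TPM + 1), 54 without a filter and 16 to 49 with 1 library left out, against 1 in the main test. With a replicate block 32 were called; the numbers are not stated to pair samples, and same-numbered libraries had deviations correlated at −0.444 over 20950 genes. Called genes of the interval, the flanks and the pathway lists stayed at 0 under every alternative run. Genes of the interval apart by 1.5-fold in the main test numbered 9, and the share of all genes at that threshold was not taken. Those apart by 2-fold numbered 15 (15.8%) with DESeq2 and 15 without a filter, where 9.99% and 9.91% of all genes were apart. On log2(TPM + 1) there was 1 (1.52%, against 1.43% of all genes). With 1 library left out there were 6 without control 1, 6 without control 2, 13 without knockout 1 and 11 without knockout 2 (8.11%, 8.22%, 17.1% and 14.5%, against 11.4%, 10.2%, 14.6% and 9.02% of all genes), since fewer libraries need to separate. All 6 members kept their direction under each alternative. On log2(TPM + 1), which understates low genes, the differences were −1.07 for Pla2g4b, 2.28 for Gchfr, −1.02 for Sptbn5 and −1.29 for Slc28a2. Summed with Mfap1b, Mfap1a moved to −0.61. With 1 library left out, log2 fold changes ran from 2.52 to 3.04 for Gchfr, −3.75 to −3.32 for Pla2g4b, −2.39 to −1.90 for Sptbn5, −1.48 to −1.36 for Mfap1b, −0.22 to −0.06 for Mfap1a and −3.45 to −2.53 for Slc28a2, where the lone library of a group is assumed to vary like the other group.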

Other observations

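A further gene of the interval, Eif3j1, has a near copy elsewhere in the genome. Eif3j1 and Eif3j2, the latter on chromosome 18, encode a subunit of the translation initiation factor eIF3, and both were chosen for mention after their values were seen. Eif3j1 had 3185 and 2935 counts in controls 1 and 2 versus 1598 and 1497 in knockouts 1 and 2, a log2 fold change of −0.79 ± 0.20 (SE). Eif3j2 had 224 and 215 counts in the controls versus 700 and 894 in the knockouts, a log2 fold change of 2.08 ± 0.31 (SE). Neither was called by the adjusted p of edgeR, with values of 1.0 and 0.249. Eif3j2 made up 6.57% and 6.83% of the pair's counts in the controls versus 30.5% and 37.4% in the knockouts. The sum of the pair was 98.1 and 89.8 CPM in the controls versus 69.5 and 85.2 CPM in the knockouts, so the split moved more than the sum. In GENCODE M21, 37.8% of the 150-base windows of Eif3j1 occur in another gene, most often in Eif3j2. The part of shared reads in these values was not tested.

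Close to Eif3j1 lies Spg11, the gene of spatacsin, a lysosomal protein. It had 1616 and 1432 counts in the controls versus 793 and 695 in the knockouts, at −0.84 ± 0.22 (SE) on the log2 scale. Frmd5, next to Wdr76, had 301 and 296 counts in the controls versus 180 and 115 in the knockouts, at −0.84 ± 0.34. Mapkbp1, near Pla2g4b, had 1581 and 1421 counts in the controls versus 2127 and 1792 in the knockouts, and went the other way at 0.58 ± 0.20. These 3 and Eif3j1 are, beside Tyro3, the genes of the interval with an unadjusted p under 0.05. All 3 had groups that did not overlap, differences under 2-fold, and an adjusted p of 1.0 by edgeR. Over the interval without the 6 members, groups did not overlap for 24 of 69 tested genes (34.8%), against 25.3% of all genes.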
